A study of Homo sapiens with 6 samples.

Results

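miR-21 was followed in its 2 mature arms, miR-21-5p and miR-21-3p (hsa-miR-21-5p and hsa-miR-21-3p), which are 2 of the 1000 mature miRNAs analysed here. They were chosen by name and not by any measured value, though with earlier results of these data known. The small RNA libraries came from HEK 293T cells, an immortalized human embryonic kidney line, 3 libraries each for the ΔTUT4/7 and the wild type strain, labelled as biological replicates. In the ΔTUT4/7 cells the uridylyltransferase genes TUT4 and TUT7, named TENT3A and TENT3B in the labels, are both deleted. No treatment was given to either strain, both were grown in DMEM with serum, and the ΔTUT4/7 cells are a single strain made in another laboratory, so any other difference between the strains is part of each comparison. Since only mature miRNAs were counted, the deletion itself could not be checked in these libraries.

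TUT4 and TUT7 add uridines to the 3′ end of RNAs, including miRNA precursors, which can mark a precursor for decay or prepare it for cutting by Dicer. A precursor is a hairpin whose stem gives a 5p and a 3p strand. Usually a single strand is kept in Argonaute as the guide and the other is degraded. miR-21 is among the most studied growth-linked miRNAs: its 5p strand is the usual guide, is raised in many tumours and represses mRNAs such as that of the tumour suppressor PDCD4. The miR-21 hairpin is not on the list of group II precursors used in the study, those that need an added nucleotide before Dicer cutting. The comparison therefore asks what the loss of both enzymes leaves of a miRNA outside that class, in its level and in the balance of its arms.

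The guide strand is shown first, because its bases 2 to 8, the seed, do most to decide which mRNAs it pairs with. The RefSeq mature miRNAs (GRCh38.p14) cover 897 of the 1000 analysed miRNAs by name. They lack miR-21-3p, so only the seed of miR-21-5p was searched. A search of them for the same 7 bases found 1 other miRNA, miR-590-5p. In both sequences, written 5′ to 3′, capitals mark the seed.
miR-21-5p: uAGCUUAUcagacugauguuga
miR-590-5p: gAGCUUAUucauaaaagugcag
Outside the seed the sequences share 1 of the last 14 bases, and in all 8 of 22 positions are identical. miR-21-5p lies on chromosome 17 of hg38 from 59841273 to 59841294 and miR-21-3p from 59841311 to 59841331, both on the plus strand, within the hairpin gene MIR21 from 59841266 to 59841337. In GENCODE release 44 this hairpin lies inside the last exon, exon 12, of the canonical transcript of VMP1, an autophagy gene on the same strand, in the untranslated part that runs from 59839909 to 59842255. The authors trimmed the reads to 18 bases. The first 18 bases of each arm occur exactly at 1 place in hg38 and in no other listed miRNA. Matches with mismatches were not searched. miR-590-5p lies on chromosome 7 from 74191213 to 74191234.

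The libraries held between 4338558 and 7967606 counts. Values are CPM, counts per 1000000 miRNA counts of a library, so they are shares, and a gain in abundant miRNAs lowers all others. Together let-7 and miR-98 made up 19.2% to 19.7% of each ΔTUT4/7 library and 5.57% to 6.36% of each wild type library. Wild type replicate 3 stood furthest from the other libraries of its strain: the chi-square of its counts against theirs, divided by the degrees of freedom, was 284 and 293, where the other replicate pairs had 13.3 to 99.2. Of 19 miRNAs restricted to other cell types, 9 were analysed here, and 5 of these stayed under 10 CPM in all 6 libraries. The exceptions were the endothelial miR-126-3p (2799 to 3938 CPM), the endocrine miR-375-3p (83.9 to 110.2 CPM), the blood cell miR-142-3p (30.9 to 96.3 CPM) and the smooth muscle miR-143-3p (0.853 to 13.1 CPM). The 9 summed to between 3978 and 4080 CPM in ΔTUT4/7 libraries and to between 2982 and 3819 CPM in those of the wild type. Most of this sum was miR-126-3p, at 3831 to 3938 CPM in ΔTUT4/7 libraries against 2799 to 3614 CPM in the wild type. The other way round, miR-142-3p had 30.9 to 36.3 CPM in ΔTUT4/7 libraries and 49.5 to 96.3 CPM in those of the wild type, and miR-143-3p 0.853 to 2.76 and 11.0 to 13.1 CPM. None of these 9 was at 0 in all libraries, and the rest of the 19 were not among the miRNAs analysed. The part of the markers in the results was not tested.

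miR-21-5p was a well expressed miRNA in both strains and its level did not pass the test of a difference between them. It stood at 3570, 3200 and 2834 CPM in ΔTUT4/7 replicates 1, 2 and 3. In wild type replicates 1, 2 and 3 it stood at 4784, 3629 and 2940 CPM. The ranges overlap, wild type replicate 1 is the highest of the 6 libraries, and replicate 3 is the lowest in both strains. In the order of abundance miR-21-5p ranked 44 to 50 in ΔTUT4/7 and 37 to 47 in wild type libraries, with 0.283% to 0.478% of all counts. Its mean level was 3201 ± 368 CPM in the knockout and 3784 ± 932 CPM in the wild type (SD over n = 3). In RNA from whole cultures, fewer cells with a miRNA and less of it per cell cannot be told apart.

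The log2 fold change of miR-21-5p, ΔTUT4/7 over wild type, was -0.24 with a standard error of 0.17 (Benjamini-Hochberg adjusted p = 0.270 over 826 tested miRNAs, edgeR quasi-likelihood test). The 95% interval ran from -0.62 to 0.14, or from 0.651-fold to 1.10-fold, so a change of 2-fold in either direction lies outside it. An exact two-sided permutation test of log2 CPM over the 6 libraries gave p = 0.400, where 3 against 3 libraries cannot give less than 0.100. Of the 826 tested miRNAs, 30.0% changed by at least 2-fold with an adjusted p under 0.05, the rule for a call here, and 45.2% had an adjusted p under 0.05 at any size. Single wild type libraries moved the value: without wild type replicate 1 it was -0.04 (edgeR adjusted p = 0.862), and without wild type replicate 3 it was -0.39 (edgeR adjusted p = 0.0415).

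Replicate libraries spread more for miR-21-5p than for miRNAs of like abundance. The pooled within-strain SD of log2(CPM + 1) was 0.28, while the median of the 30 other tested miRNAs between 1746 and 6986 CPM was 0.15, and 4 of these 30 spread more. The counts of 12754 to 28913 a library place each level within 1.15% to 1.74% either side (exact 95% binomial interval, for counting error only), while the CV over replicates was 11.5% in ΔTUT4/7 and 24.6% in wild type cells. Of the same 30 miRNAs, 20 changed by more than miR-21-5p and 5 were called.

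miR-21-3p, the strand that is usually degraded, was far rarer and had higher mean CPM in ΔTUT4/7 cells, with no call. It had 44.9, 44.3 and 36.5 CPM in ΔTUT4/7 replicates 1, 2 and 3, from 228, 213 and 171 counts. The wild type replicates 1, 2 and 3 had 37.4, 28.9 and 26.7 CPM, from 165, 230 and 116 counts. Only wild type replicate 1 reaches into the ΔTUT4/7 range, lying just above ΔTUT4/7 replicate 3. miR-21-3p ranked 248 to 271 in ΔTUT4/7 and 262 to 302 in wild type libraries.

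Over n = 3 libraries each, miR-21-3p averaged 41.9 CPM with an SD of 4.71 in ΔTUT4/7 and 31.0 CPM with an SD of 5.64 in wild type cells. The log2 fold change was 0.44 with a standard error of 0.20 and a 95% interval from -0.002 to 0.88 (edgeR adjusted p = 0.0944). An exact two-sided permutation test over the libraries gave p = 0.200. Of 15 alternative settings, 2 gave an adjusted p under 0.05. Without wild type replicate 1, the library that overlaps, the value was 0.59 (edgeR adjusted p = 0.0455). Leaving out any other library kept edgeR adjusted p above 0.05, from 0.0820 without ΔTUT4/7 replicate 3 to 0.250 without ΔTUT4/7 replicate 2. With library totals computed without let-7 and miR-98, the value was 0.66 (edgeR adjusted p = 0.0187). That scaling also shifted the median over the 826 tested miRNAs, which was 0.013, to 0.23. Measured from the median, miR-21-3p stood at 0.42 with the full totals and at 0.43 with those totals, and miR-21-5p at -0.25 in both. Summed, the arms reached 3243 ± 372 CPM in ΔTUT4/7 cells and 3815 ± 937 CPM in the wild type (SD over n = 3), which is a log2 fold change of -0.23 (edgeR adjusted p = 0.286).

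**Figure D1:**
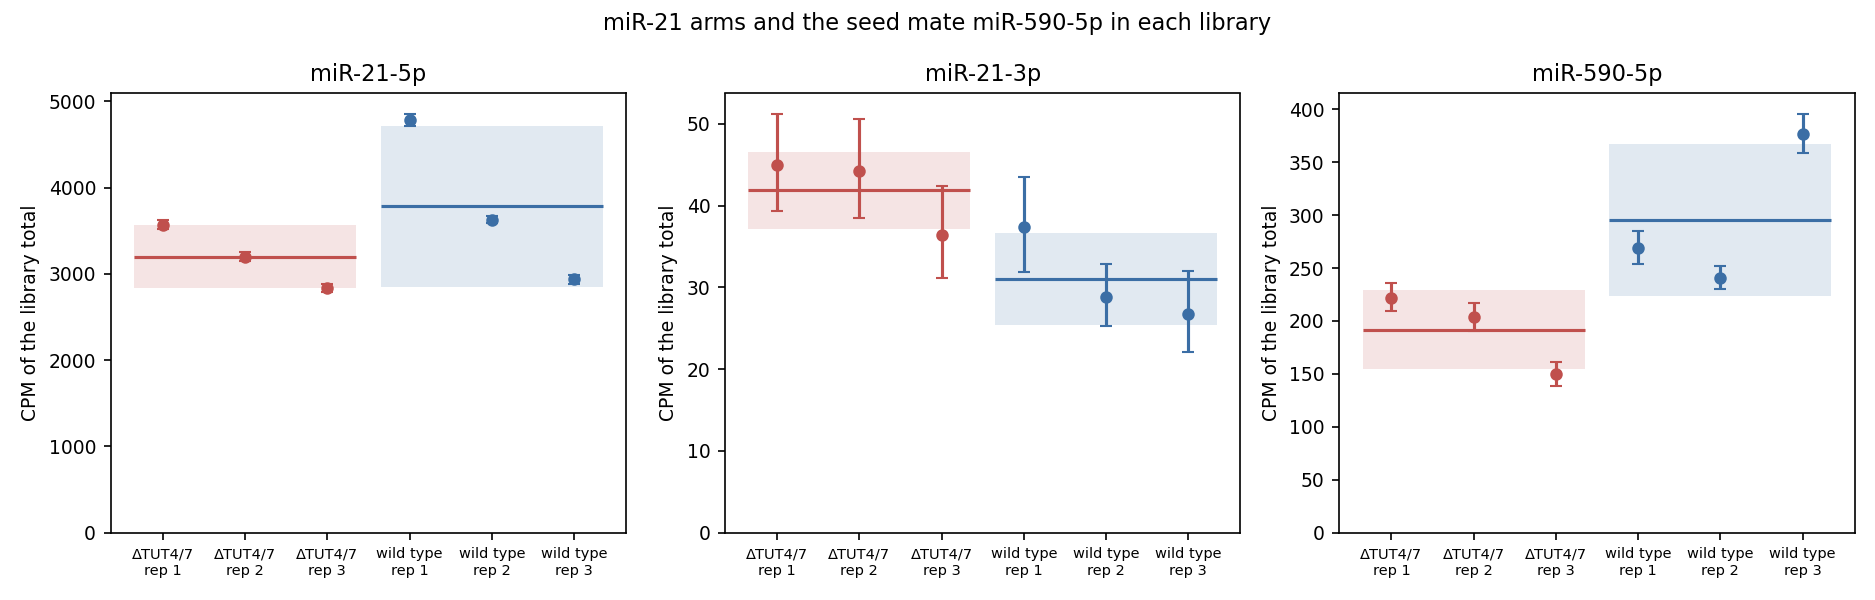
Level of miR-21-5p, miR-21-3p and miR-590-5p in CPM of the library total (vertical axis, from 0) in each of the 6 libraries (points, with exact 95% binomial intervals for counting error); lines are strain means and bands 1 SD either side. miR-21-5p overlaps between the strains, miR-21-3p overlaps only through wild type replicate 1, and miR-590-5p is at most 222 CPM in ΔTUT4/7 and at least 240.5 CPM in wild type libraries.

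The balance of the arms is taken within a library and does not depend on the library total. The ratio of 5p to 3p was lower in the ΔTUT4/7 libraries. ΔTUT4/7 replicates 1, 2 and 3 had 79.4, 72.3 and 77.7 counts of miR-21-5p for each count of miR-21-3p. Wild type replicates 1, 2 and 3 had 128, 126 and 110. The strains do not overlap, and the highest ΔTUT4/7 ratio lies under the lowest wild type ratio. Among the 200 hairpins with both arms tested, the arm ratios of 34.0% did not overlap between the strains.

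The 3p arm made up 1.24%, 1.36% and 1.27% of the miR-21 counts in ΔTUT4/7 replicates 1, 2 and 3, with Wilson 95% intervals that together span 1.09% to 1.56%. In wild type replicates 1, 2 and 3 it made up 0.776%, 0.789% and 0.901%, with intervals that together span 0.666% to 1.08%. These intervals cover counting error only and not the spread between libraries. The mean ratio of 5p to 3p was 76.5 ± 3.75 (SD, n = 3) in ΔTUT4/7 and 121 ± 9.80 (SD, n = 3) in wild type cells.

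The difference of the arms' fold changes was tested in an edgeR fit over the 200 hairpins with a term for each library. The log2 ratio of 5p to 3p was lower in ΔTUT4/7 cells by a difference of -0.66 with a standard error of 0.22 and a 95% interval from -1.13 to -0.19, or 1.58-fold lower. Unadjusted p was 0.00938 in this edgeR fit, and the Benjamini-Hochberg adjusted p over the 200 hairpins was 0.0552, so the difference did not pass 0.05 there. In that fit 31 hairpins passed, or 15.5%, with 11 lower and 20 higher ratios, and miR-21 took place 34 in the order of p. The exact permutation test over the libraries gave p = 0.100, the smallest that 3 against 3 libraries allow. With only hairpins whose arms both averaged at least 10 CPM in the fit, the difference was again -0.66 (edgeR adjusted p = 0.0345 over fewer hairpins), and without wild type replicate 3 it was -0.73 (edgeR adjusted p = 0.00686). Leaving out any of the other 5 libraries kept it above 0.05, with edgeR adjusted p from 0.0908 without wild type replicate 1 to 0.250 without ΔTUT4/7 replicate 2.

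The size of this difference changed when a trend with GC content was removed. miR-21-5p has 36.4% G and C and miR-21-3p 57.1%, a difference of -20.8 percentage points, and 3 of the 200 hairpins have a more negative one. The trend of log2 CPM with GC content differed between the strains: at the GC content of miR-21-5p it lay 0.60 to 0.66 above its mean in wild type and 0.34 to 0.52 in ΔTUT4/7 libraries. At that of miR-21-3p it lay between -0.43 and -0.50 in wild type and between -0.26 and -0.33 in ΔTUT4/7 libraries. With each library's trend removed, the difference of the log2 arm ratio was -0.31 with a 95% interval from -0.83 to 0.21 (limma, adjusted p = 0.410), against -0.66 in the same limma fit with the trend left in (adjusted p = 0.0994). The level of miR-21-5p moved from -0.24 to -0.05 and that of miR-21-3p from 0.44 to 0.29 on the log2 scale (edgeR adjusted p = 0.834 and 0.240). Across the 200 hairpins, which share the 6 libraries and their GC trends, the change of the arm ratio had a Spearman correlation of 0.30 with the GC difference of the arms. Since the trend differed between the strains, its removal also takes out any strain effect that follows GC content. Such a strain effect and a GC effect of the libraries cannot be told apart here, and neither was tested.

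miR-21 is a strongly one-sided hairpin, and other such hairpins give a scale for its arm ratio. On the log2 scale its mean ratio of 5p to 3p over the 6 libraries was 6.58, and 23 of the 200 hairpins had a higher one, while the median of all was 0.53. In each library it ranked between 19 and 29 of 200. Over all 200 hairpins the rarer arm gained in 115, or 57.5%, with a median gain of 0.12 on the log2 scale, and 24 gained and 7 lost with an adjusted p under 0.05 in the edgeR fit. Of the 82 hairpins whose arms were at least 16-fold apart, the rarer arm gained in ΔTUT4/7 cells in 56, or 68.3%, with a median gain of 0.34 on the log2 scale. Of these, 28 gained more than the 0.66 of miR-21. Of the 82, 19 gained and 4 lost at that threshold. In these 82 the Spearman correlation of the arm ratio's change with the GC difference was 0.49. These counts describe the hairpins and were added after the values were seen.

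**Figure D2:**
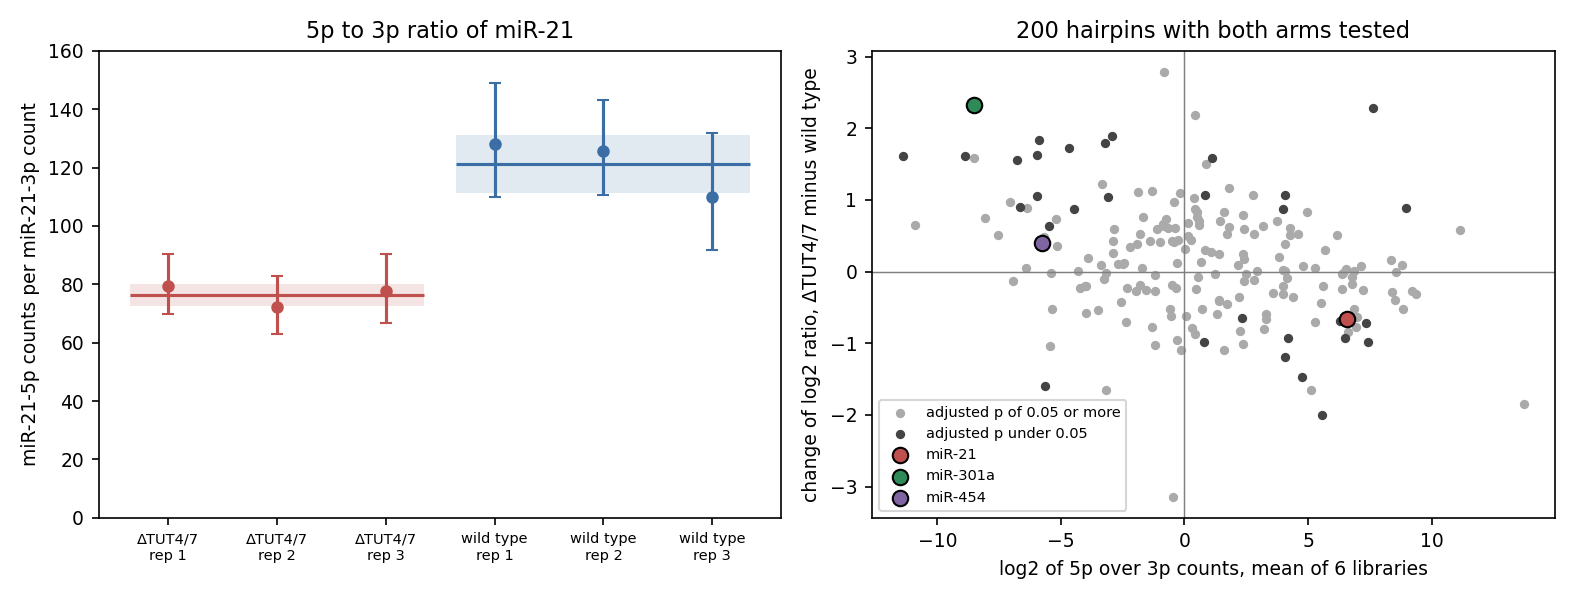
Left, counts of miR-21-5p for each count of miR-21-3p in each library, with Wilson 95% intervals, strain means (lines) and 1 SD (bands). The ΔTUT4/7 libraries lie between 72.3 and 79.4 and the wild type libraries between 110 and 128. Right, each of 200 hairpins by its mean log2 ratio of 5p to 3p (horizontal) and the change of that ratio, ΔTUT4/7 minus wild type (vertical). miR-21 lies at 6.58 and -0.66, miR-301a at -8.51 and 2.33, and miR-454 at -5.77 and 0.40.

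miR-590-5p, which shares the seed of miR-21-5p, was lower in ΔTUT4/7 cells. It had 222, 204 and 150 CPM in ΔTUT4/7 replicates 1, 2 and 3. In wild type replicates 1, 2 and 3 it had 269, 240.5 and 376 CPM. The strains do not overlap, as for 58.4% of the tested miRNAs, and wild type replicate 3 is the highest. The log2 fold change was -0.62 with a standard error of 0.21 and a 95% interval from -1.07 to -0.17 (edgeR adjusted p = 0.0292), which is under the 2-fold limit of a call. It no longer passed 0.05 without wild type replicate 3 (-0.41, edgeR adjusted p = 0.0804), ΔTUT4/7 replicate 2 (-0.67, edgeR adjusted p = 0.0648) or ΔTUT4/7 replicate 3 (-0.47, edgeR adjusted p = 0.111). The same held with the GC trend removed (-0.43, edgeR adjusted p = 0.0831) and with totals that omit let-7 and miR-98 (-0.40, edgeR adjusted p = 0.133).

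Of the counts of miR-21-5p and miR-590-5p together, miR-21-5p supplied most in every library. The share from miR-590-5p was 5.86%, 5.98% and 5.02% in ΔTUT4/7 replicates 1, 2 and 3 and 5.32%, 6.21% and 11.4% in wild type replicates 1, 2 and 3. Wild type replicate 3 stands apart from the other 5 libraries, which lie between 5.02% and 6.21%. The strain means were 5.62% ± 0.520 and 7.63% ± 3.25 (SD over n = 3), with an exact two-sided permutation p of 0.400.

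Around miR-21 on chromosome 17, 5 other listed miRNAs lie within 1 Mb. They are both arms of miR-301a, about 690.1 kb before it, both arms of miR-454, about 703.5 kb before it, and miR-4729, which had 3 counts over all ΔTUT4/7 and 7 over all wild type libraries and was not tested. Of the 4 tested, 1 was called, beside 16.5% of all tested miRNAs called higher and 13.6% called lower. miR-454-3p, the abundant arm of its hairpin, stood at 4235, 4033 and 3731 CPM in ΔTUT4/7 replicates 1, 2 and 3 and at 5695, 5826 and 6464 CPM in wild type replicates 1, 2 and 3. It was lower by a log2 fold change of -0.58 (edgeR adjusted p = 0.00187), and the strains do not overlap, as for 58.4% of the tested miRNAs. miR-301a-3p, of the same seed family as miR-454-3p, stood at 1495, 1616 and 1640 CPM in ΔTUT4/7 replicates 1, 2 and 3. The wild type replicates stood at 1951, 1906 and 2514 CPM, all higher. Its log2 fold change was -0.42 (edgeR adjusted p = 0.0304), and -0.20 both with the GC trend removed and with totals computed without let-7 and miR-98 (edgeR adjusted p = 0.269 and 0.268). Those totals moved miR-454-3p to -0.36 (edgeR adjusted p = 0.0273). For miR-301a-3p, leaving out a ΔTUT4/7 library gave -0.38 without replicate 1, -0.44 without replicate 2 and -0.45 without replicate 3 (edgeR adjusted p = 0.107, 0.0918 and 0.0639).

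The rarer arms of these hairpins differed from each other. miR-301a-5p stood at 10.4, 9.98 and 8.53 CPM in ΔTUT4/7 replicates 1, 2 and 3 and at 2.95, 2.51 and 2.07 CPM in those of the wild type, a log2 fold change of 1.93 with a standard error of 0.28 (edgeR adjusted p = 1.70e-04), from 141 and 42 counts. It was called higher, and the lowest ΔTUT4/7 library lies well above the highest wild type library. All ΔTUT4/7 libraries lay above all wild type libraries for 28.8% of the tested miRNAs. miR-454-5p had a log2 fold change of -0.19 (edgeR adjusted p = 0.407). The log2 arm ratio, 5p over 3p, differed between the strains by 2.33 for miR-301a (95% interval 1.66 to 3.00, adjusted p = 5.08e-04 in the edgeR arm fit) and by 0.40 for miR-454 (95% interval -0.09 to 0.90, edgeR adjusted p = 0.252). In miR-301a and miR-454 the 3p arm is the abundant one, so the arm that passed as higher in miR-301a is its rarer arm. Removal of the GC trend left the arm ratio of miR-301a at 2.34 (limma, adjusted p = 0.0264), and its arms differ in GC content by 1.78 percentage points. Within 5 Mb, 7 miRNAs were tested, of which 1 was called higher and 2 lower, both arms of the blood cell miRNA miR-142, named after their values were seen.

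Other growth-linked miRNAs were for the most part not called, and the shares called were near those of all tested miRNAs. A list of 18 other miRNAs known for a part in proliferation or tumour growth was taken, of which 17 were analysed here and tested. By mean CPM, 12 of the 17 were more abundant than miR-21-5p. In ΔTUT4/7 cells 2 of 17 were called higher, 2 lower and 13 not called, beside 16.5% and 13.6% of all tested miRNAs. Their median log2 fold change was -0.11, and that of all 826 tested miRNAs 0.013. With an adjusted p under 0.05 at any size, 4 of the 17 were higher and 6 lower by edgeR, beside 45.2% of all tested miRNAs that passed in either direction.

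The members called higher were miR-92a-3p and miR-20a-5p, the latter from the miR-17-92 cluster, which is amplified in lymphomas. miR-20a-5p averaged 65523 ± 2207 CPM in ΔTUT4/7 cells and 31862 ± 4398 CPM in the wild type (SD over n = 3), with a log2 fold change of 1.04 (edgeR adjusted p = 1.70e-05). miR-92a-3p averaged 55009 ± 6849 and 24905 ± 7919 CPM (SD over n = 3), with a log2 fold change of 1.14 (edgeR adjusted p = 6.48e-04). Both lie close to the 2-fold limit: miR-20a-5p fell under it without wild type replicate 2 (0.97) and miR-92a-3p without wild type replicate 3 (0.92). The members called lower were miR-31-5p, at 1261 ± 28.7 and 3115 ± 255 CPM, and the hypoxia-induced miR-210-3p, at 109 ± 3.48 and 295 ± 20.0 CPM, the ΔTUT4/7 mean first (SD over n = 3). Their log2 fold changes were -1.30 and -1.44 (edgeR adjusted p = 6.57e-06 and 1.44e-05). miR-93-5p, the most abundant member that was not called, averaged 39536 ± 1695 and 42708 ± 5342 CPM (SD over n = 3), with a log2 fold change of -0.11 (edgeR adjusted p = 0.436).

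**Figure D3:**
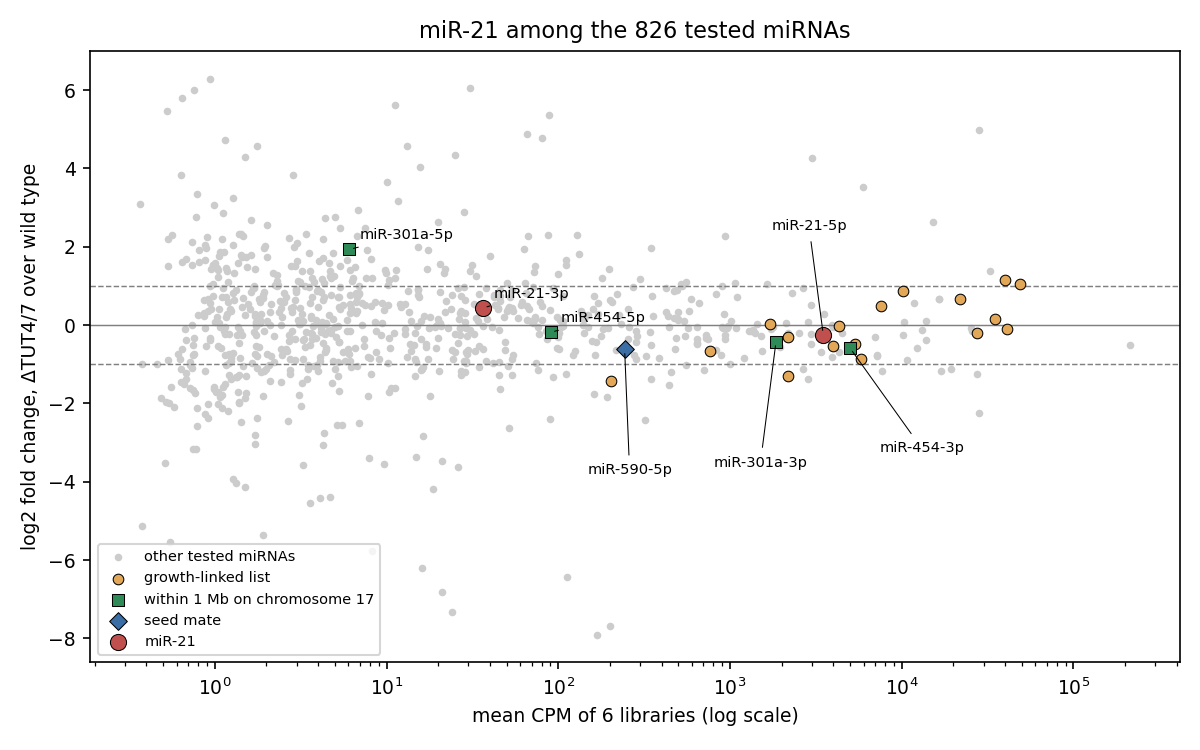
Each of the 826 tested miRNAs by its mean CPM over the 6 libraries (horizontal, log scale) and its log2 fold change, ΔTUT4/7 over wild type (vertical); dashed lines mark 2-fold. miR-21-5p (-0.24) and miR-21-3p (0.44) lie within the 2-fold lines, while miR-301a-5p lies above them and 4 members of the growth-linked list lie outside them.

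In size of change, 154 of the 826 tested miRNAs changed less than miR-21-5p and 258 less than miR-21-3p. In the order of mean CPM, miR-21-5p was at place 45, between miR-126-3p (3547 CPM) and miR-361-5p (3398 CPM). That order rests on means over both strains, and within a strain the neighbours lay further off: against the 3201 CPM of miR-21-5p in ΔTUT4/7 cells, miR-126-3p had 3893 CPM and miR-361-5p 2599 CPM, both further away than its SD of 368. In wild type cells they had 3201 and 4197 CPM, within its SD of 932. miR-21-3p was at place 267, between miR-548a-3p (36.6 CPM) and miR-153-3p (35.9 CPM). miR-548a-3p averaged 28.8 CPM over the ΔTUT4/7 libraries and 44.4 CPM over those of the wild type, below miR-21-3p in the first and above it in the second by more than its SD. miR-153-3p, with 40.7 and 31.2 CPM, lay within the SD of miR-21-3p in each strain.

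Some miRNAs varied over the libraries much as the arms of miR-21 did. Correlations were taken over the 6 libraries, among 389 other miRNAs with a mean of at least 10 CPM. The log2(CPM + 1) of miR-21-5p went most closely with miR-340-5p (Pearson r = 0.96), miR-454-5p (0.95), miR-2277-5p (0.93), miR-548k (0.88) and miR-125b-2-3p (0.85). Of these, miR-454-5p is also a neighbour of miR-21 on chromosome 17. For miR-21-3p the closest were miR-628-5p (0.98), miR-548e-3p (0.95), miR-181c-5p (0.94), miR-132-5p (0.93) and miR-548e-5p (0.93). The lists share no member. The correlation of miR-21-5p with miR-21-3p was 0.19 and with miR-590-5p 0.23. The highest of 389 values over 6 libraries that share their totals are a description only.

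**Figure D4:**
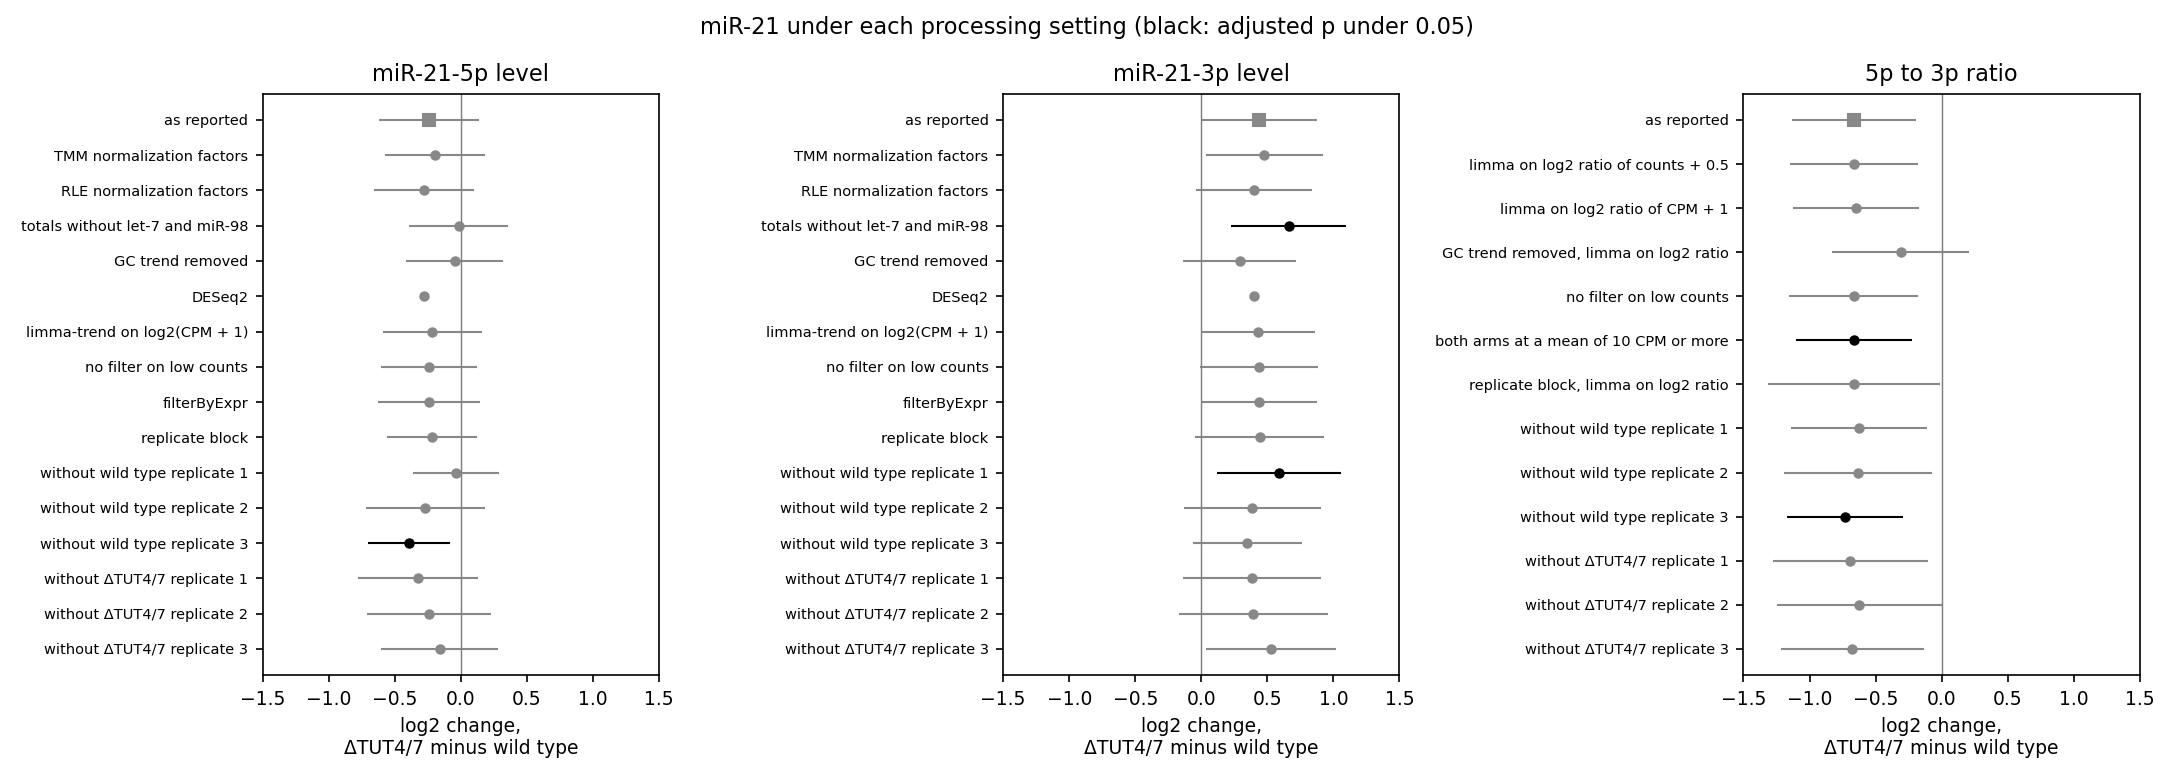
Log2 change, ΔTUT4/7 minus wild type, of the miR-21-5p level, the miR-21-3p level and the 5p to 3p ratio (points) with 95% intervals where the fit gives one (bars), under each processing setting; squares are the values as reported, and black marks an adjusted p under 0.05. The sign is the same in all settings, and the values run from -0.39 to -0.02, from 0.29 to 0.66 and from -0.73 to -0.31.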

How the data were processed

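The authors made the small RNA libraries with the QIAseq miRNA Library Kit, sequenced them on a NextSeq 500, cut the reads down to 18 nt and aligned them to hg38 by Bowtie 1.0.0, with miRBase mature miRNAs counted in Partek Flow 10.0.22. No use of molecular identifiers is stated. The deposited values are expected counts (estimated counts of an expectation-maximization model), written as whole numbers, and 3 large values, all of miR-16-5p in wild type libraries, are written with 3 digits. The authors' own comparison (p-values, FDR, ratios, fold changes and strain means) was not used. The deposited stop coordinates lie 1 past the last base.

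Libraries were assigned from their labels. Library size was the total count with normalization factors of 1. A miRNA entered the edgeR 4.0.16 quasi-likelihood test (R 4.3.3) if its largest count exceeded 7. Calls needed an absolute log2 fold change of 1 or more and a Benjamini-Hochberg adjusted p under 0.05. Arms of the same name were paired into hairpins, and the arm ratio was tested in edgeR with a term for each library and 1 for the arm by strain. Labels do not say that same-numbered libraries share a culture or day. Other statistics used Python 3.11.15, numpy 2.4.6, pandas 2.3.3, scipy 1.17.1 and pysam 0.24.0, and figures matplotlib 3.10.9. Alternatives used DESeq2 1.42.0, limma 3.58.1, TMM and RLE factors, totals without let-7 and miR-98, removal of each library's GC trend (lowess, span 0.5), other filters, the replicate number as a block, and each library left out. GC content was read from hg38 at the deposited coordinates for all 1000 miRNAs, and 897 matched RefSeq by name. On simulated counts of the strain comparison (777 miRNAs), edgeR recovered 86.0% of 3-fold and 97.9% of 6-fold changes with 2 false calls. In the simulated arm ratios (200 hairpins) it recovered 92.5% of 4-fold changes with 2 false calls. Smaller changes, such as those of miR-21, and a library that stands apart were not simulated.

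Named were both arms, the seed mate of miR-21-5p, neighbours within 1 Mb, the called and the most abundant uncalled members of the growth-linked list, the 5 closest patterns per arm and the neighbours in level. The members and lists were chosen with earlier results of these data known.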

Additional observations from a re-analysis of the deposited data

How the results depend on the processing

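miR-21-5p kept its direction in all 15 alternatives, at -0.39 to -0.02 on the log2 scale, and miR-21-3p in all 15, at 0.29 to 0.66. Leaving out each library gave -0.39 to -0.037 for miR-21-5p, 0.35 to 0.59 for miR-21-3p, -0.39 to -0.030 for the sum of both arms and -0.73 to -0.62 for the arm ratio. The sum had an adjusted p under 0.05 only without wild type replicate 3 (-0.39, edgeR adjusted p = 0.0444). miR-21-3p passed in 2 of 15 alternatives, with totals computed without let-7 and miR-98 (0.66) and without wild type replicate 1 (0.59). The arm ratio passed in 2 of 12, in the fit of hairpins whose arms both average 10 CPM or more (-0.66, fewer hairpins) and without wild type replicate 3 (-0.73). The arm ratio kept its direction in all 12 alternatives. In the growth-linked list, leaving out each library gave 1 to 3 members called higher and 2 to 3 lower. With totals computed without let-7 and miR-98, 183 miRNAs were called higher and 81 lower over all tested, in place of 136 and 112. miR-93-5p changed sign under that scaling (0.11), and miR-454-5p under it (0.038) and with the GC trend removed (0.044), with the cause not tested. In the replicate block, the log2 fold changes were -0.22 for miR-21-5p and 0.44 for miR-21-3p, and the arm ratio -0.66 (limma adjusted p = 0.226); no call of a miR-21 arm changed, while miR-301a-3p (-0.41, edgeR adjusted p = 0.0602) and the arm ratio of miR-301a (2.32, limma adjusted p = 0.107) no longer passed 0.05. Same-numbered libraries deviated with correlations of -0.17, -0.16 and -0.25, and differently numbered ones with -0.10 to 0.19. With 3 libraries per strain these values cannot decide whether same-numbered libraries share a culture or day. Depth limits miR-21-3p, whose 116 to 230 counts a library give counting intervals of 13.1% to 18.7% either side, and miR-301a-5p, with 9 to 53 counts a library.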
